A study of Mus musculus with 20 samples.

Results

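The transcripts of 36 genes that cells use against unfolded protein and amino acid shortage were followed in endothelial cells sorted from mouse sciatic nerve. The genes were taken by symbol from a fixed list, and all 36 were found among 55376 genes in both count tables. They fall into 3 roles: 11 genes of the ATF4 axis, 6 enzymes of serine synthesis and mitochondrial one-carbon metabolism, and 19 chaperones, foldases and sensors of the endoplasmic reticulum (ER). None was chosen by its measured values, but the list was drawn up with earlier results of these data known.

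As background, amino acid shortage and ER stress both lead to phosphorylation of the translation factor eIF2, which slows most protein synthesis while ATF4 protein is made more. ATF4 then binds genes for amino acid supply and stress control. Unfolded protein in the ER is sensed by PERK (which phosphorylates eIF2), by IRE1 (the product of Ern1, which splices Xbp1 mRNA) and by ATF6, and spliced XBP1 and cleaved ATF6 switch on chaperones and degradation factors. Dividing and secreting cells such as sprouting endothelium draw on the same enzymes for nucleotides and on the same chaperones for secreted matrix. Gene counts show neither ATF4 protein nor the spliced form of Xbp1.

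RNA was sequenced in bulk from 20 libraries of adult mice, all of cells that were reporter-positive and CD45-negative. In the Tomato experiment Cdh5(PAC)-CreERT2, an inducible Cre driven by the endothelial Cdh5 promoter, turned on the R26-Tomato reporter in mice wild type for Plxnd1, with groups of intact nerve (n = 5), 7 days after injury (7 dpi, n = 5) and 14 days after injury (14 dpi, n = 4). In the Cherry experiment Kdr-Cherry cells were taken at 7 dpi from Plxnd1 KO mice (Chd5::CreER; Plxnd1 fl/fl in the labels' spelling, n = 3) and from control mice labelled Plxnd1 WT (n = 3), and whether those controls carried Cre is not given in the sources used here. Injured cells came from the bridge at the lesion, although the condition label says crush, and every library pooled nerves that had been digested with enzymes for 30 min at 37 C. No label names the animals behind a library, and the p-values rest on differences among libraries that may be partly technical.

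Libraries held 19.06 to 34.18 M counts in the Tomato experiment and 19.25 to 33.79 M in the Cherry experiment, and all 36 genes passed the low-count filter in both. Endothelial markers such as Pecam1 (2292 ± 393.4 CPM at 7 dpi and 1383 ± 521.7 CPM in intact nerve) were high in every group. The 12 endothelial markers did not all follow Pecam1, since 6 rose and 2 fell at 7 dpi. Their sums overlapped, at 7408 to 11422 CPM at 7 dpi, 6718 to 8650 CPM at 14 dpi and 5480 to 13547 CPM in intact nerve. The Tomato sort also held much RNA of fibroblast and perineurial markers. The summed level of the 8 perineurial markers was 679 to 1933 CPM at 7 dpi, 2139 to 4946 CPM at 14 dpi and 6752 to 12879 CPM in intact nerve, and all 8 fell at 7 dpi. The 11 fibroblast markers summed to 4549 to 20504 CPM at 7 dpi, 16882 to 36903 CPM at 14 dpi and 9749 to 18264 CPM in intact nerve. Although these sums overlapped between 7 dpi and intact nerve, 6 of the 11 rose and 2 fell at 7 dpi, with a median log2 fold change of 0.98. Dcn, an abundant marker of that list, averaged 3560 CPM at 7 dpi and 9687 CPM in intact nerve. In the Cherry sort the perineurial sum was 262 to 315 CPM in KO and 454 to 471 CPM in WT. Of the 6 perineurial markers tested in that sort, 1 was lower in KO and 5 were not called. Cldn1, the first marker of that list, averaged 2.51 CPM in KO and 1.64 CPM in WT. Macrophage markers summed to 385 CPM in 7 dpi replicate 4 and to 1305 CPM in 14 dpi replicate 3, where the medians of those groups were 65.7 and 58.4 CPM and the highest intact library had 43.0 CPM. Summed Y-linked genes were above 1 CPM in 1 of 5 libraries at 7 dpi, in 2 of 4 at 14 dpi and in all 5 of intact nerve, so male and female makeup moved with injury.

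The promoters of the same genes were searched for letters known to bind these factors, because genes that share a motif did not all move alike. RefSeq promoters of build GRCm38.p6 were found for 32 of the 36 genes, and the 250 bases before the start were searched on both strands. Starts are those of RefSeq, and the windows shown for Asns, Nupr1 and Hspa5 lie in an exon of the gene as the count tables place it. The CARE motif, read by ATF4 with C/EBP partners, was spelled TGATGNAA and was found in 7 of the 32 genes against 3.45% of 32851 promoters. The ER stress element (ERSE), read by ATF6 and XBP1 with NF-Y, was spelled CCAAT and CCACG with any 9 bases between them and was found in 6 of the 32 genes against 0.113% of promoters. Its variant ERSE-II, ATTGG and CCACG with any 1 base between them, was found in Herpud1 against 0.0304% of promoters. The XBP1 element TGACGTGG was found in none of the 32 against 0.563%, which says only that these letters are not in this window. Shown 5′ to 3′ on the strand of the gene, with the CARE, ERSE or ERSE-II letters in capitals, are 4 CARE genes (Asns, Pck2, Chac1, Nupr1), 4 ERSE genes (Hspa5, Pdia6, Calr, Dnajc3) and the ERSE-II of Herpud1.
Asns (chr6:7693214-7693243, minus strand): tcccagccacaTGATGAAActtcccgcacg
Pck2 (chr14:55540137-55540196, plus strand): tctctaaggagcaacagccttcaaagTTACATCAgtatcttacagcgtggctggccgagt
Chac1 (chr2:119351023-119351082, plus strand): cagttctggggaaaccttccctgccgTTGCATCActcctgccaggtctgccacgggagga
Nupr1 (chr7:126625562-126625591, minus strand): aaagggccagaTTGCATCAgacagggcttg
Hspa5 (chr2:34772020-34772049, plus strand): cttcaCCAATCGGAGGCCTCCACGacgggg
Pdia6 (chr12:17266471-17266530, plus strand): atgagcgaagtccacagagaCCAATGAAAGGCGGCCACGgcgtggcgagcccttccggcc
Calr (chr8:84847054-84847113, minus strand): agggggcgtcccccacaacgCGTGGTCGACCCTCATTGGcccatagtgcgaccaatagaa
Dnajc3 (chr14:118937807-118937866, plus strand): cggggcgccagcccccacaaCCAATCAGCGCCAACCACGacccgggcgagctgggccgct
Herpud1 (chr8:94386353-94386412, plus strand): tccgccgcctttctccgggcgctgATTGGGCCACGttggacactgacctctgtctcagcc
The other CARE genes were Herpud1, Slc7a11 and Vldlr, and the other ERSE genes were Creld2 and Hsp90b1. A match describes letters and is not a measured binding site. The genes were listed for their place in these same pathways, so a share above that of all promoters is not a finding about them. Counts among the 32 are of genes, whereas the percentages are of promoters.

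Some counts may hold reads of neighbours or may lack reads that were shared with them. The strand setting of the counting is not given in the sources used here, and the direction of such an error was not tested. Exons of Ddit3 overlap Mars on the other strand, those of Atf5 overlap Il4i1 and Nup62, those of Psph overlap Cct6a, those of Shmt2 overlap Ndufa4l2 and those of Aldh1l2 overlap D10Wsu102e. Over the Tomato libraries Psph had 9161 counts and its neighbour 69879, and Aldh1l2 had 607 and its neighbour 12284. Ddit3 had 13596 counts and Atf5 3751, where the overlapping gene of most counts had 24360 and 21953. Reads of such opposite-strand pairs cannot be told apart without strand. Exons of Manf overlap Rbm15b on the same strand, where strand would not part them. Manf had 37297 counts, and the overlapping gene of most counts had 6797.

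At 7 dpi the 3 roles did not move as 1 block. Of the 36 genes, 14 rose, 10 fell and 12 were not called, where 15.7% of 20409 genes tested rose and 16.3% fell (edgeR quasi-likelihood test, Benjamini-Hochberg adjusted p under 0.05, which is what called means throughout). Serine and one-carbon enzymes went up in 3 of 6 and down in 0, with a median log2 fold change of 0.85. ER genes went up in 9 of 19 and down in 4, with a median of 0.35. ATF4-axis genes went up in 2 of 11 and down in 6, with a median of -0.72. The median over all genes tested was -0.10. In bulk RNA, fewer cells of a type and less RNA per cell cannot be told apart.

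**Figure D1:**
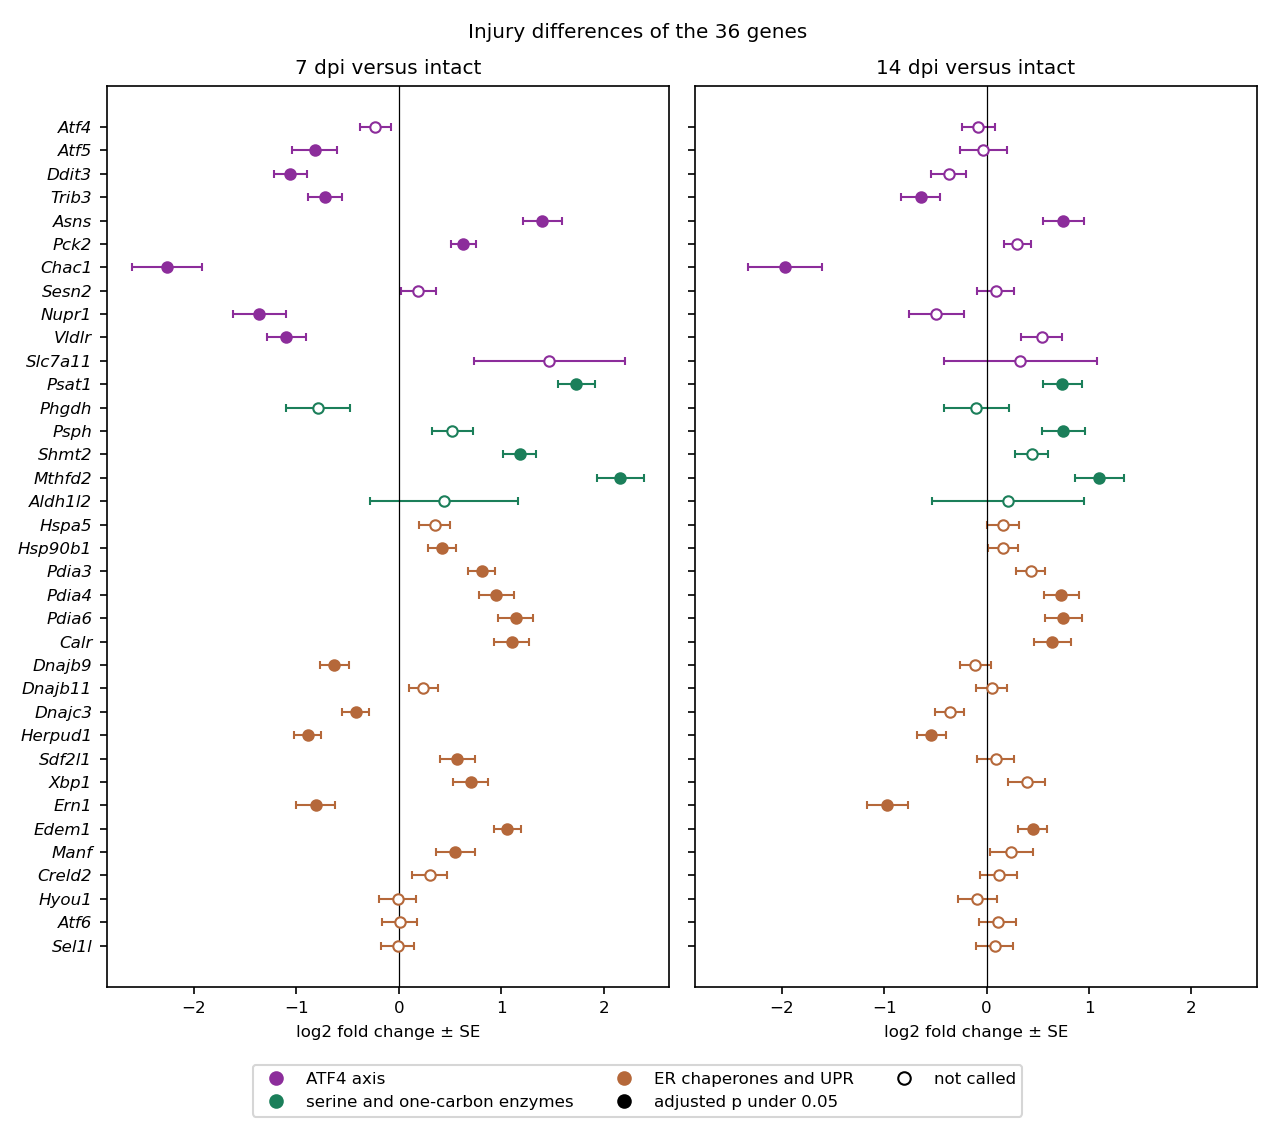
Log2 fold change of the 36 genes at 7 dpi versus intact (left) and 14 dpi versus intact (right), with horizontal bars of 1 SE on each side; filled points passed the adjusted p threshold. At 7 dpi the points run from Chac1 at -2.26 to Mthfd2 at 2.16, and at 14 dpi from Chac1 at -1.97 to Mthfd2 at 1.10.

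Within the ATF4 axis, the factor's own mRNA did not pass the test. Atf4 (chromosome 15, 80255184-80257541, plus strand, GRCm38) had 256, 241, 256, 350.0 and 286 CPM at 7 dpi, against 334, 364, 293, 385 and 239 CPM in intact nerve. The groups overlapped, and the log2 fold change was -0.23 ± 0.15 (SE; adjusted p = 0.272 by edgeR). Its value was -0.35 with an adjusted p of 0.0187 by edgeR without intact replicate 5, the library with the lowest summed endothelial markers. CPM uses library sizes adjusted by TMM, separately for each experiment.

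The stress effectors of the axis fell. Ddit3, which encodes the pro-apoptotic factor CHOP (chromosome 10, 127290774-127296288, plus strand), had 22.9, 22.1, 17.6, 30.3 and 26.1 CPM at 7 dpi, against 48.5, 47.5, 46.7, 67 and 36 CPM in intact nerve. Every 7 dpi library lay below every intact library, and the log2 fold change was -1.06 ± 0.16 (SE; adjusted p = 9.6e-05 by edgeR). Chac1 (chromosome 2, 119351229-119354381, plus strand), which breaks down glutathione, was low in all groups, with 0.818, 1.03, 1.67, 0.870 and 0.669 CPM at 7 dpi, against 3.82, 5.63, 4.99, 4.42 and 4.80 CPM in intact nerve. Those groups did not overlap either, and its log2 fold change of -2.26 ± 0.34 (SE; adjusted p = 6.1e-05 by edgeR) was the most negative of the 36. Trib3, a pseudokinase that restrains the axis, had 15.9, 19.5, 20.1, 16.6 and 14.5 CPM at 7 dpi, against 41.5, 37, 27.3, 22.3 and 17.6 CPM in intact nerve. The Trib3 groups overlapped through intact replicate 5, and the log2 fold change was -0.72 ± 0.17 (SE; adjusted p = 0.00379 by edgeR).

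A further 3 genes of the axis fell without overlap. Atf5, a factor related to Atf4, had 8.08, 4.97, 3.71, 8.70 and 8.75 CPM at 7 dpi, against 11.8, 12.1, 9.83, 16 and 9.02 CPM in intact nerve, and the log2 fold change was -0.82 ± 0.22 (SE; adjusted p = 0.00871 by edgeR). Nupr1, a small stress-induced nuclear protein, had 45.5, 72.6, 22.7, 66.5 and 89 CPM at 7 dpi, against 124, 98.1, 152.2, 263 and 117 CPM in intact nerve. Its log2 fold change was -1.36 ± 0.26 (SE; adjusted p = 6.3e-04 by edgeR). The lipoprotein receptor gene Vldlr had 9.20, 11.9, 9.33, 13.2 and 18.4 CPM at 7 dpi, against 26.8, 29.4, 23.8, 25.1 and 24.1 CPM in intact nerve, and changed by -1.10 ± 0.19 (SE; adjusted p = 3.1e-04 by edgeR) on the log2 scale. Perineurial marker RNA fell with these genes, and with its mean level as a covariate the fold changes of Atf5 and Nupr1 turned to 0.18 and 0.78 (edgeR adjusted p = 0.901 and 0.417). Whether perineurial RNA had a part in the falls was not tested.

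Enzymes of the axis that supply amino acids and gluconeogenic carbon moved the other way. Asns, the asparagine synthetase gene (chromosome 6, 7675169-7693254, minus strand), had 65.2, 62.7, 63.8, 60.4 and 56.1 CPM at 7 dpi, against 24.5, 40.5, 22.8, 20.4 and 12.3 CPM in intact nerve. Its groups were far apart, and the log2 fold change was 1.40 ± 0.19 (SE; adjusted p = 2.7e-05 by edgeR), or 2.65 times the intact level. Pck2, mitochondrial phosphoenolpyruvate carboxykinase, had 87.1, 103, 96.1, 131.1 and 111 CPM at 7 dpi, against 64.4, 69.8, 68.7, 70.5 and 63.9 CPM in intact nerve, without overlap and with a log2 fold change of 0.63 ± 0.12 (SE; adjusted p = 7.9e-04 by edgeR). Sesn2, a leucine-responsive brake on mTORC1, was not called at 0.19 ± 0.17. Slc7a11, the cystine transporter of glutathione synthesis, had 4.70, 3.0, 2.96, 3.13 and 2.73 CPM at 7 dpi, against 0.0734, 0.620, 0.381, 0.986 and 6.05 CPM in intact nerve. Intact replicate 5 alone put its groups in overlap: the log2 fold change was 1.47 ± 0.74 (SE; adjusted p = 0.151 by edgeR) with that library and 2.69 without it (adjusted p = 0.000558). The 7 CARE genes thus split, since Asns and Pck2 rose, Chac1, Nupr1, Vldlr and Herpud1 fell, and Slc7a11 was not called.

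Serine is made from a glycolytic intermediate in 3 steps, and its side chain carbon then enters mitochondrial folate. The first step, Phgdh (chromosome 3, 98313170-98339990, minus strand), had 24.7, 39, 7.25, 51.7 and 58.8 CPM at 7 dpi, against 45.4, 36.2, 60, 91.5 and 62.9 CPM in intact nerve. The groups overlapped widely and the log2 fold change of -0.79 ± 0.31 (SE; adjusted p = 0.0592 by edgeR) was not called. It was called by DESeq2 (adjusted p = 0.0247) and with the fibroblast markers as a covariate, at -1.71 (edgeR adjusted p = 0.000116). The second step, Psat1 (chromosome 19, 15904678-15925059, minus strand), had 52.1, 62.1, 56.8, 65.7 and 69.5 CPM at 7 dpi, against 16.5, 23.6, 20.2, 19.2 and 12.6 CPM in intact nerve. No library overlapped, and the log2 fold change was 1.73 ± 0.18 (SE; adjusted p = 1.4e-06 by edgeR), or 3.31 times intact. The third step, Psph, had 27.5, 29.5, 20.2, 29.4 and 28.8 CPM at 7 dpi, against 17, 23.7, 19.3, 23 and 11.7 CPM in intact nerve, and with overlapping groups its log2 fold change of 0.52 ± 0.20 (SE; adjusted p = 0.0571 by edgeR) was not called, although DESeq2 called it at an adjusted p of 0.0253. Phgdh was therefore measured on the other side of zero from Psat1 and Psph. Its lowest 7 dpi library, at 7.25 CPM, also had the lowest fibroblast and perineurial marker sums of that group, at 4549 and 679 CPM, and the part of those cells was not tested.

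The mitochondrial one-carbon enzymes Shmt2 and Mthfd2, which take the carbon from serine and oxidise it on folate, both rose. Shmt2 had 80, 67.4, 90.9, 90.8 and 73.2 CPM at 7 dpi, against 36.4, 39.9, 33.8, 42.1 and 25 CPM in intact nerve, with a log2 fold change of 1.18 ± 0.16 (SE; adjusted p = 1.8e-05 by edgeR). Mthfd2 (chromosome 6, 83305691-83317606, minus strand) had 13.8, 18.4, 16, 21.4 and 16 CPM at 7 dpi, against 2.42, 4.75, 4.04, 5.47 and 2.53 CPM in intact nerve, with a log2 fold change of 2.16 ± 0.23 (SE; adjusted p = 2.1e-06 by edgeR). Neither gene's groups overlapped, and the Mthfd2 change was 4.45 times intact, the highest of the 36. Aldh1l2, which returns formyl-folate to folate in mitochondria, was low throughout, with 0.633 to 2.30 CPM at 7 dpi and 0.305 to 5.07 CPM in intact nerve, and its 0.44 ± 0.72 (adjusted p = 0.716) by edgeR was not called. Intact replicate 5 held the 5.07 CPM, and the other intact libraries had 0.305 to 1.46 CPM. The within-batch log2 differences were -0.96 in batch 1133 and 1.44 in batch 1292. In batch 1292 alone Aldh1l2 was called, at 2.22 (edgeR adjusted p = 0.0109). All 20 S phase genes rose beside Shmt2 and Mthfd2, with summed levels of 1296 to 1763 CPM at 7 dpi and 320 to 497 CPM in intact nerve. The part of cell division in the enzyme rises was not tested.

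**Figure D2:**
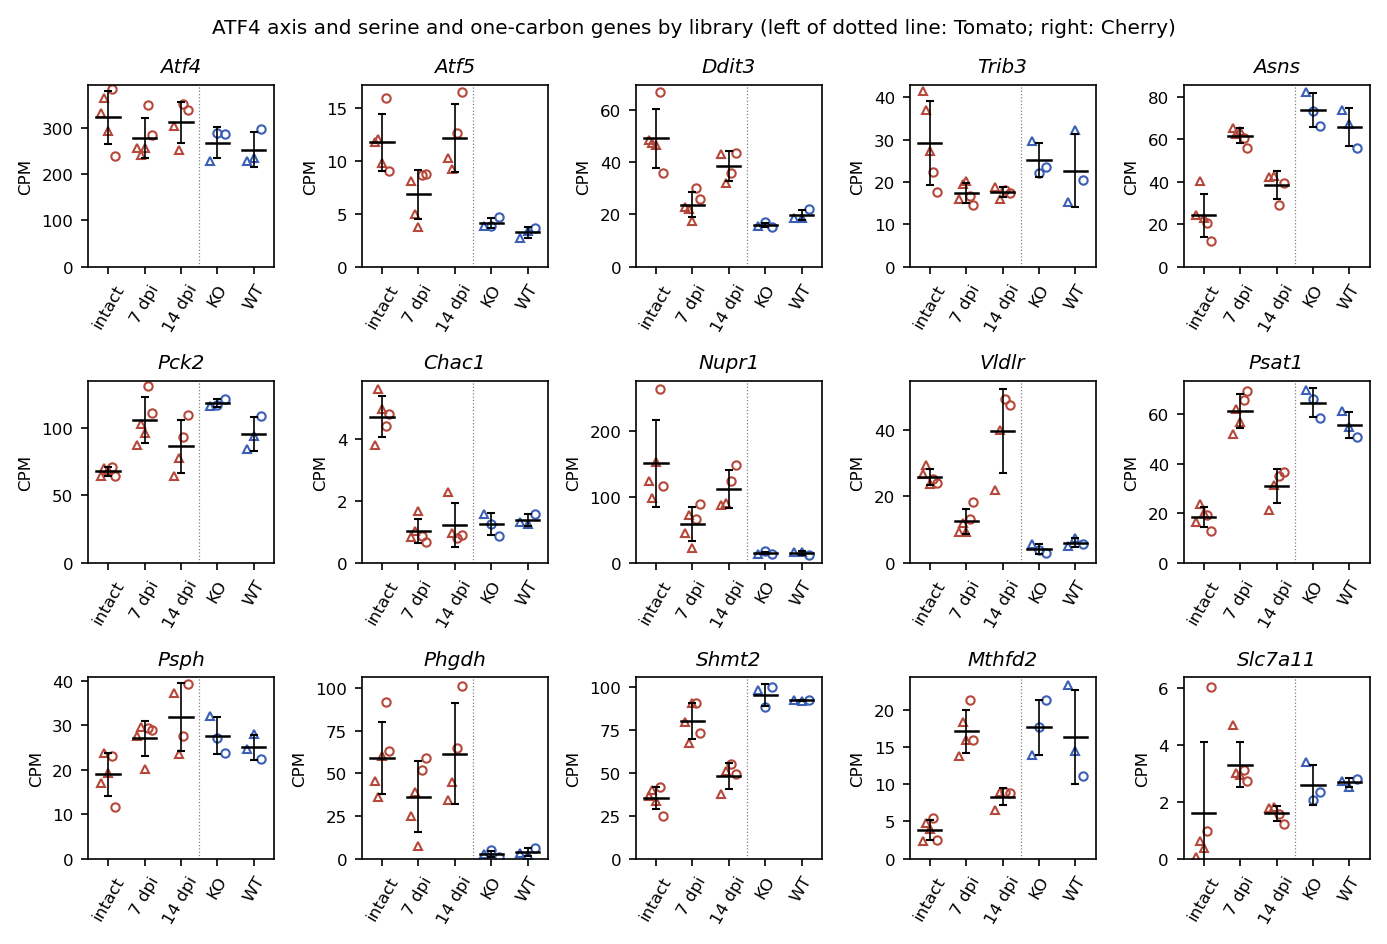
CPM of 15 genes of the ATF4 axis and serine and one-carbon metabolism in every library, with the group mean and SD as bars; circles are batch 1133, triangles batch 1292, and the dotted line parts the Tomato groups (left) from Cherry KO and WT (right). Mthfd2 averaged 3.84 ± 1.35, 17.1 ± 2.92 and 8.35 ± 1.17 CPM in intact nerve, at 7 dpi and at 14 dpi.

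Among ER genes, disulfide isomerases and calreticulin had larger log2 fold changes than the ER members of the heat shock families. Pdia6 (chromosome 12, 17266545-17284770, plus strand), a protein disulfide isomerase, had 478, 470.4, 508, 589.9 and 548 CPM at 7 dpi, against 210.0, 284, 293, 252 and 142 CPM in intact nerve, and a log2 fold change of 1.14 ± 0.17 (SE; adjusted p = 7.8e-05 by edgeR). Calr, the calcium-binding lectin calreticulin (chromosome 8, 84841850-84846934, minus strand), had 421, 348, 316, 475 and 487 CPM at 7 dpi, against 195, 213, 186, 224 and 125 CPM in intact nerve, and a log2 fold change of 1.10 ± 0.17 (SE; adjusted p = 9.9e-05 by edgeR). Pdia3, the isomerase that works with calreticulin, had 1229, 1199.7, 1326, 1171 and 1173 CPM at 7 dpi, against 714, 814, 832, 634 and 509.7 CPM in intact nerve. All 3 genes were higher in every 7 dpi library than in any intact library, as was Pdia4, and Pdia3 and Pdia4 changed by 0.81 ± 0.13 (adjusted p = 1.8e-04) and 0.95 ± 0.17 (adjusted p = 2.7e-04) by edgeR. Hspa5 (chromosome 2, 34771970-34777547, plus strand), the chaperone BiP that holds the sensors inactive, had 1143, 1116, 1264, 1152 and 1098 CPM at 7 dpi, against 848, 1039, 1179.9, 945 and 558 CPM in intact nerve. Its groups overlapped and the log2 fold change of 0.35 ± 0.15 (SE; adjusted p = 0.0946 by edgeR) was not called, although DESeq2 called it at an adjusted p of 0.0178. Hsp90b1, the ER member of the HSP90 family, changed by 0.42 ± 0.14 (SE; adjusted p = 0.0329 by edgeR) and lost its call in 13 of 24 alternative fits, among them those without intact replicate 1, intact replicate 5, 7 dpi replicate 3 or 7 dpi replicate 4, at 0.32 to 0.43 with adjusted p of 0.0501 to 0.0905.

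Smaller rises were seen for Sdf2l1, an ER chaperone cofactor, at 0.57 ± 0.17 (adjusted p = 0.0163) and for Manf, a secreted ER stress protein, at 0.55 ± 0.19 (adjusted p = 0.04), both by edgeR. Manf lost its call in 7 of the fits that left out 1 library. The mannosidase-like gene Edem1, which passes misfolded glycoproteins to degradation, had 61, 45.5, 49.8, 63.1 and 44.2 CPM at 7 dpi, against 25.2, 27.8, 21.8, 27.6 and 23.9 CPM in intact nerve, with no overlap and a log2 fold change of 1.06 ± 0.13 (SE; adjusted p = 1.2e-05 by edgeR). Creld2, a secreted ER stress protein, Dnajb11, a BiP cochaperone, Hyou1, a large relative of BiP, and Sel1l, a scaffold of ER-associated degradation, were not called, at 0.30, 0.24, -0.01 and -0.01.

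The sensor genes Ern1 and Atf6 and the known targets Herpud1, Dnajb9 and Dnajc3 did not rise with the foldases, whereas Xbp1 did. Xbp1 (chromosome 11, 5520659-5525893, plus strand) had 694, 689, 605, 575 and 606 CPM at 7 dpi, against 433, 506, 416, 386 and 231 CPM in intact nerve, and rose without overlap by 0.70 ± 0.17 (SE; adjusted p = 0.00379 by edgeR). Ern1, whose product splices Xbp1, had 12.1, 11.1, 13.7, 3.84 and 8.29 CPM at 7 dpi, against 23.4, 20.9, 19.7, 11 and 10.7 CPM in intact nerve. Its groups overlapped, yet within each batch the 7 dpi mean was lower, and the log2 fold change was -0.81 ± 0.19 (SE; adjusted p = 0.00294 by edgeR). Atf6 was not called at 0.01 ± 0.17. Herpud1 (chromosome 8, 94386438-94395377, plus strand), an organiser of ER-associated degradation, had 139, 128, 121, 145 and 111 CPM at 7 dpi, against 259.5, 233, 232, 249 and 216 CPM in intact nerve. These groups were well apart and the log2 fold change was -0.89 ± 0.13 (SE; adjusted p = 5.4e-05 by edgeR). Dnajb9 and Dnajc3, co-chaperones of BiP, fell by edgeR, at -0.63 ± 0.14 (adjusted p = 0.00177) and -0.42 ± 0.13 (adjusted p = 0.0185), although the groups of each overlapped. The fall of Dnajc3 turned to 0.19 (adjusted p = 0.794) with the perineurial marker level as a covariate. Of the 6 ERSE genes, Calr, Pdia6 and, less stably, Hsp90b1 rose, Dnajc3 fell, and Hspa5 and Creld2 were not called.

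**Figure D3:**
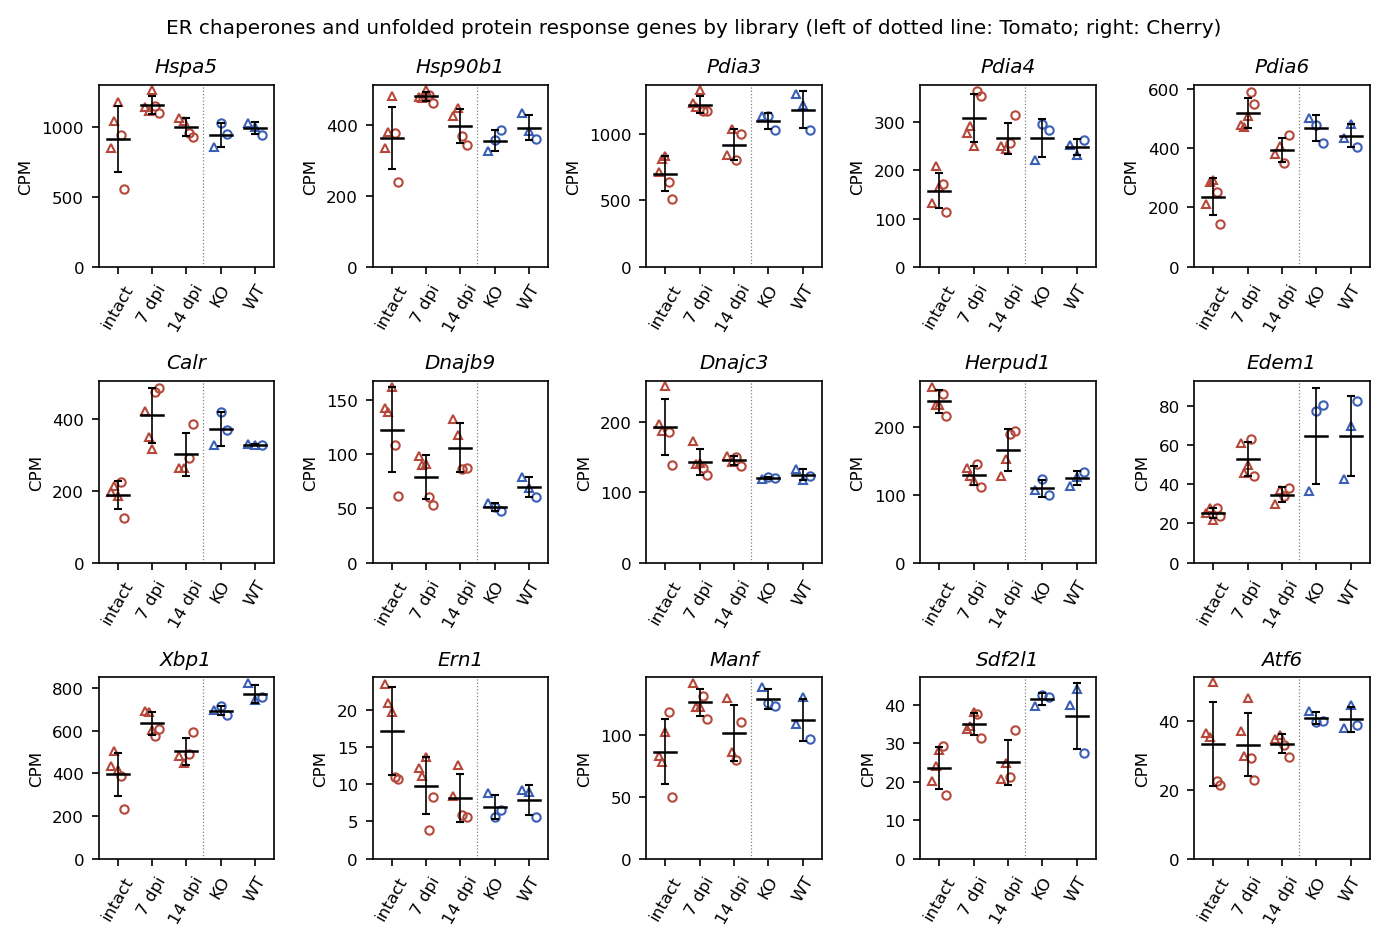
CPM of 15 ER genes in every library, with the group mean and SD as bars; circles are batch 1133, triangles batch 1292, and the dotted line parts the Tomato groups (left) from Cherry KO and WT (right). Pdia6 averaged 236 ± 61.8, 519 ± 50.1 and 394 ± 40.9 CPM and Herpud1 238 ± 16.9, 129 ± 13.6 and 166 ± 31.4 CPM in intact nerve, at 7 dpi and at 14 dpi.

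Across the 36 genes, 12 were higher in every 7 dpi library than in any intact library and 6 were lower, where 10.9% and 10.6% of genes tested were. All 24 called genes had the same sign in both batches. Those calls came from a fit of the same libraries, so the signs are not an independent replication, and the share over all called genes was not computed. With the perineurial marker mean as a covariate 3 of the 24 stayed called (Chac1, Mthfd2 and Psat1). In all, 381 genes were called, against 6535 without it. A further 18 of the 24 lost their call with the same sign, among them Ddit3, Asns, Shmt2, Pdia6, Calr and Xbp1. Atf5, Nupr1 and Dnajc3 changed sign. The covariate was lower in every 7 dpi library than in any intact library, so this fit cannot tell marker level and injury apart. With the summed Y-linked level as a covariate 17 of the 24 stayed called.

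The wider pathways, read from lists drawn up with earlier results known, also moved unevenly. Aminoacyl-tRNA synthetases, which charge tRNAs and many of which ATF4 is known to raise, rose in 14 of 19 and fell in 0, with a median of 0.47; Gars, Vars and Kars changed by 1.04, 0.91 and 0.72. Amino acid transporters of the stress response rose in 3 of 11 and fell in 5, with a median of -0.87. Slc7a5 and its partner Slc3a2, which together import large neutral amino acids, changed by -2.84 ± 0.21 (adjusted p = 4.9e-08) and -1.49 ± 0.16 (adjusted p = 3.1e-06) by edgeR, the cationic carrier Slc7a1 by -1.94, and Slc7a6 by 1.45. Regulators of eIF2 and the integrated stress response rose in 4 of 22 and fell in 2, with a median of 0.15. The translation repressor gene Eif4ebp1 changed by 1.67, Eif2b2 and Eif2s1 by 1.24 and 0.94, the Gcn2 inhibitor gene Impact by -1.29, and Ppp1r15a, which recruits the eIF2 phosphatase, by -0.49.

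Other enzymes of folate, serine and methionine rose in 5 of 22 and fell in 5, with a median of -0.07. The thymidylate synthase gene Tyms changed by 2.72 and mitochondrial Mthfd1l by 1.49, whereas cytosolic Aldh1l1 changed by -1.57. Other ER foldases and chaperones rose in 16 of 28 and fell in 2, with a median of 0.50. The greatest rises there were of the prolyl isomerase gene Fkbp10 at 2.38 ± 0.19 (adjusted p = 1.2e-07), the collagen chaperone gene Serpinh1 at 1.54 ± 0.17 (adjusted p = 3.1e-06) and the lysyl hydroxylase gene Plod2 at 1.39 ± 0.19 (adjusted p = 2.4e-05), all by edgeR. The prolyl hydroxylase subunit gene P4ha1 fell in the same list, at -0.57 with an adjusted p of 0.00356 by edgeR. Fibroblast markers rose in 6 of 11 and fell in 2 at the same time, and the part of those cells in the foldase changes was not tested. Translocation and glycosylation genes of the ER rose in 15 of 33 and fell in 2, with Ssr2, Ssr3 and Sec61a1 at 0.94, 0.93 and 0.91. ER-associated degradation and other unfolded protein factors rose in 6 of 28 and fell in 3, with a median of 0.10. Cytosolic heat shock genes rose in 4 of 12 and fell in 3, and immediate early genes, which enzymatic dissociation is known to raise, rose in 0 of 15 and fell in 11.

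At 14 dpi the differences from intact nerve were fewer. Of the 36 genes, 8 rose, 4 fell and 24 were not called, where 6.86% of genes tested rose and 5.09% fell, and the median was 0.14 against 0.00 over all genes. ATF4-axis genes rose in 1 of 11 and fell in 2, serine and one-carbon enzymes rose in 3 of 6 and fell in 0, and ER genes rose in 4 of 19 and fell in 2. All 12 called genes had the same sign in both batches, which is again not independent of the calls. Of the 36 genes, 5 and 2 lay wholly above and below intact, where 5.14% and 4.73% of genes did.

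Asns and 3 of the 6 serine and one-carbon enzymes, Psat1, Psph and Mthfd2, were called as higher at 14 dpi. Asns had 42.3, 42.7, 28.9 and 39.6 CPM at 14 dpi, against 12.3 to 40.5 CPM over the intact libraries, and a log2 fold change of 0.75 ± 0.20 (SE; adjusted p = 0.0206 by edgeR). Psat1 had 21.4, 31.5, 34.8 and 36.8 CPM at 14 dpi, against 12.6 to 23.6 CPM in intact nerve, and a log2 fold change of 0.74 ± 0.19 (SE; adjusted p = 0.0139 by edgeR). Without 14 dpi replicate 4 Asns was not called, at 0.62 (edgeR adjusted p = 0.0684). Asns overlapped through intact replicate 2 and Psat1 through 14 dpi replicate 1. Mthfd2 had 6.60, 8.92, 9.0 and 8.90 CPM at 14 dpi, against 2.42 to 5.47 CPM in intact nerve, without overlap, and a log2 fold change of 1.10 ± 0.24 (SE; adjusted p = 0.00484 by edgeR). Psph, with 37.2, 23.4, 27.6 and 39.2 CPM at 14 dpi against 11.7 to 23.7 CPM in intact nerve, overlapped narrowly and was called at 0.75 ± 0.21 (SE; adjusted p = 0.0267 by edgeR), a call lost in 3 of the fits that left out 1 library (without intact replicate 1, 14 dpi replicate 1 or 14 dpi replicate 4, at 0.61 to 0.71, adjusted p of 0.0611 to 0.1). Shmt2 was not called, at 0.44 ± 0.16 (adjusted p = 0.0959) by edgeR, although DESeq2 called it at an adjusted p of 0.0321. Phgdh was not called either, at -0.10 ± 0.32, although with the fibroblast markers as a covariate it was called at -2.05 (edgeR adjusted p = 0.012).

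Of the ER foldases, Pdia6, Pdia4 and Calr were above intact. Pdia6 had 379, 406, 348 and 444 CPM, Pdia4 had 251, 244, 256 and 315 CPM and Calr had 262, 263, 291 and 386 CPM at 14 dpi, each above every intact library. Their log2 fold changes were 0.75 ± 0.18 (adjusted p = 0.0114), 0.73 ± 0.17 (adjusted p = 0.01) and 0.64 ± 0.18 (adjusted p = 0.0286) by edgeR. Calr was not called without 14 dpi replicate 4, at 0.50 (edgeR adjusted p = 0.093). Pdia3 was not called, at 0.43 ± 0.14 (adjusted p = 0.0639) by edgeR with overlapping groups, although DESeq2 called it at an adjusted p of 0.00404, and neither was Hsp90b1, at 0.16 ± 0.15 (adjusted p = 0.624) by edgeR. Edem1 was called at 0.45 ± 0.14 (SE; adjusted p = 0.0482 by edgeR) but kept that call in only 2 of 23 alternative fits. Herpud1, with 128, 152.8, 189.7 and 193 CPM at 14 dpi against 216 to 259.5 CPM in intact nerve, was lower, at -0.54 ± 0.14 (SE; adjusted p = 0.0167 by edgeR), and lost its call without 14 dpi replicate 2, at -0.52 (edgeR adjusted p = 0.0721). Ern1 had 8.46, 12.5, 5.87 and 5.6 CPM at 14 dpi against 10.7 to 23.4 CPM in intact nerve, an overlap in 1 library, and a log2 fold change of -0.97 ± 0.20 (SE; adjusted p = 0.00377 by edgeR).

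Chac1 and Trib3 were the ATF4-axis genes that were lower at 14 dpi. Chac1 had 2.28, 0.944, 0.782 and 0.897 CPM at 14 dpi, against 3.82 to 5.63 CPM in intact nerve, and a log2 fold change of -1.97 ± 0.36 (SE; adjusted p = 0.00129 by edgeR). Trib3 had 18.9, 16, 18.1 and 17.4 CPM at 14 dpi, against 17.6 to 41.5 CPM in intact nerve, and a log2 fold change of -0.64 ± 0.19 (SE; adjusted p = 0.0319 by edgeR) that was lost in 4 of the fits that left out 1 library. Fibroblast markers rose in 7 of 11 and fell in 0 at 14 dpi. With their mean as a covariate 0 of the 12 genes kept their call, and with the perineurial mean 2 did, and the part of these cells and that of injury cannot be told apart. Among the wider lists, other ER foldases rose in 12 of 28 and fell in 1 (P4ha2, another prolyl hydroxylase subunit gene, at -0.71), translocation genes rose in 5 of 33 and fell in 0, amino acid transporters rose in 2 of 11 and fell in 3, tRNA synthetases were not called in any of 19, and other folate and serine enzymes rose in 2 of 22 and fell in 3. Regulators of eIF2 rose in 1 of 22 and fell in 1, degradation and other unfolded protein factors rose in 0 of 28 and fell in 1, heat shock genes rose in 1 of 12 and fell in 1, immediate early genes rose in 2 of 15 and fell in 0, and S phase genes rose in 14 of 20 and fell in 0.

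Between 14 and 7 dpi, 4 of the 36 genes rose and 5 fell, where 9.93% of genes tested were called, 5.73% as higher and 4.20% as lower. The median was -0.18 against 0.06 over all genes. The falls were of Mthfd2 at -1.05 ± 0.24 (SE; adjusted p = 0.00911 by edgeR), Psat1 at -0.99 ± 0.19 (SE; adjusted p = 0.00287 by edgeR), Shmt2 at -0.74 ± 0.17 (SE; adjusted p = 0.00859 by edgeR), Asns at -0.65 ± 0.20 (SE; adjusted p = 0.0498 by edgeR) and Edem1 at -0.61 ± 0.14 (SE; adjusted p = 0.0111 by edgeR). Their 14 dpi libraries all lay below their 7 dpi libraries. Asns lost its call in 8 of 9 fits that left out 1 library, and with fibroblast or perineurial markers as covariates 2 and 0 of the 9 calls were kept. Without 7 dpi replicate 4 and 14 dpi replicate 3, the libraries of high macrophage RNA, 4 of the 36 genes were called. Serine and one-carbon enzymes fell in 3 of 6, ATF4-axis genes rose in 3 of 11 and fell in 1, and ER genes rose in 1 of 19 and fell in 1.

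The rises were of Vldlr, Ddit3, Atf5 and Dnajb9. Vldlr had 21.8, 40.1, 49.3 and 47.6 CPM at 14 dpi, against 9.20, 11.9, 9.33, 13.2 and 18.4 CPM at 7 dpi, with no overlap and a log2 fold change of 1.64 ± 0.20 (SE; adjusted p = 1.2e-04 by edgeR). Ddit3 had 43.2, 32, 35.7 and 43.7 CPM at 14 dpi, against 22.9, 22.1, 17.6, 30.3 and 26.1 CPM at 7 dpi, with no overlap and a log2 fold change of 0.69 ± 0.17 (SE; adjusted p = 0.0171 by edgeR). Atf5 had 10.3, 9.26, 12.6 and 16.5 CPM at 14 dpi, against 8.08, 4.97, 3.71, 8.70 and 8.75 CPM at 7 dpi, also apart, and changed by 0.79 ± 0.23 (SE; adjusted p = 0.0398 by edgeR). Dnajb9 overlapped between the times and changed by 0.52 ± 0.15 (SE; adjusted p = 0.0309 by edgeR). Of the fits that left out 1 library, 8 of 9 lost the call of Atf5, with adjusted p up to 0.115, and 4 lost that of Dnajb9, with adjusted p up to 0.0796, both by edgeR. Ddit3 lost its call without 14 dpi replicate 1, at 0.56 (edgeR adjusted p = 0.0549). This contrast shares its 7 dpi libraries with that of 7 dpi against intact nerve, so opposite signs in the 2 contrasts are not independent. Over all 36 genes, 3 were wholly above and 11 wholly below at 14 dpi, where 5.04% and 5.79% of genes tested were.

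Mean levels at the 3 stages show 3 courses. Psat1, Mthfd2, Asns and Shmt2 peaked at 7 dpi, with Psat1 at 18.4, 61.3 and 31.1 CPM and Shmt2 at 35.5, 80.5 and 48.4 CPM in intact nerve, at 7 dpi and at 14 dpi. Vldlr, Ddit3 and Nupr1 had their trough at 7 dpi, with Vldlr at 25.8, 12.4 and 39.7 CPM and Nupr1 at 150.8, 59.3 and 112 CPM. Nupr1 was not called between 14 and 7 dpi, at 0.87 ± 0.27 (adjusted p = 0.0528) by edgeR. Chac1 and Ern1 were low at both later stages, with Chac1 at 4.73, 1.01 and 1.23 CPM and Ern1 at 17.1, 9.82 and 8.11 CPM. At 14 dpi against 7 dpi S phase genes fell in 18 of 20, tRNA synthetases in 4 of 19, other folate and serine enzymes in 4 of 22, eIF2 regulators in 3 of 22 with 1 rise, and other ER foldases in 2 of 28. Amino acid transporters rose in 1 and fell in 1 of 11, immediate early genes rose in 9 of 15, heat shock genes rose in 2 of 12, and translocation and degradation genes were not called. Perineurial markers rose in 5 of 8 over the same interval.

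Per kilobase of exon, the same pair of genes led the 36 in each Tomato group, and lower ranks moved. Pdia3 ranked 1 in every group, with 253 ± 48.1, 440.4 ± 23 and 332 ± 41.1 CPM per kb in intact nerve, at 7 dpi and at 14 dpi, and Hspa5 ranked 2 in these groups, with 243 ± 62.2, 308 ± 17.3 and 266 ± 17.5 CPM per kb. In intact nerve Hspa5 and Pdia3 differed by less than their SDs. Atf4 ranked 3 in intact nerve at 187 ± 33.9 CPM per kb, and Nupr1 ranked 4 at 182 ± 79.4 CPM per kb, again within their spread. At 7 dpi Nupr1 ranked 9, at 71.5 ± 31 CPM per kb, and Pdia6 and Calr ranked 4 and 5, at 239 ± 23 and 187 ± 34.6 CPM per kb. The least abundant per length were Slc7a11 and Aldh1l2, at 0.165 ± 0.254 and 0.258 ± 0.329 CPM per kb in intact nerve.

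Endothelial deletion of Plxnd1, a semaphorin receptor, gave no called change in the 36 genes at 7 dpi. Plxnd1 itself averaged 150.7 ± 16.7 CPM in KO and 339 ± 13.4 CPM in WT (SD, n = 3 each), a log2 fold change of -1.23 ± 0.10 (SE; edgeR adjusted p = 1.3e-04), with counts over the whole gene. By edgeR 0 of 36 genes were called, where 0.308% of 16227 genes were. At an unadjusted edgeR p under 0.05 there were 6. The share over all genes at that unadjusted threshold was not computed, so this count does not set the 36 apart from other genes. DESeq2 called 0 of the 36. The log2 fold changes ran from -0.67 for Phgdh to 0.29 for Manf, with a median of 0.03 against -0.01 over all genes. The 95% interval lay within 1 log2 unit of zero for 32 of the 36, the exceptions being Chac1, Vldlr, Phgdh and Aldh1l2. A p above the threshold does not show that KO and WT were alike.

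**Figure D4:**
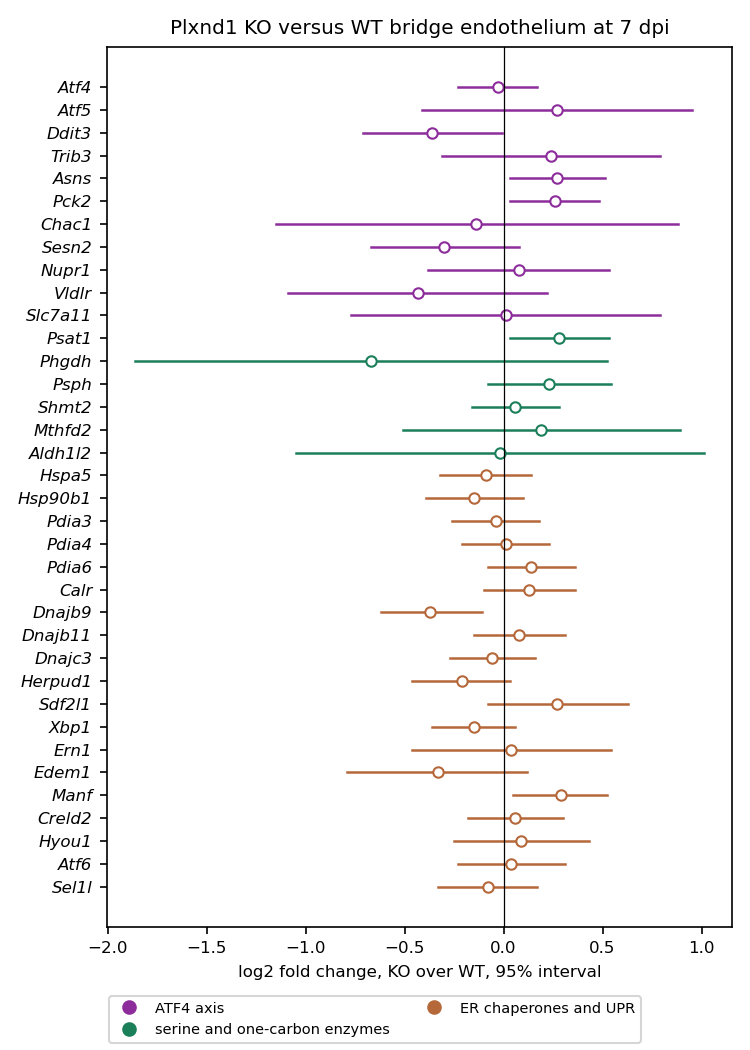
Log2 fold change of the 36 genes in Plxnd1 KO over WT bridge endothelium at 7 dpi, with 95% intervals. No gene passed the adjusted p threshold, and the widest interval, that of Phgdh, ran -1.86 to 0.52.

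The 6 genes with the smallest p included both enzymes and stress factors. Dnajb9 had 54.6, 51.7 and 47.2 CPM in KO, against 79.3, 69.2 and 60.6 CPM in WT. All KO libraries were below all WT libraries, and the log2 fold change was -0.37 ± 0.12 (SE; adjusted p = 0.256 by edgeR), the lowest adjusted p of the 36. Ddit3 had 15.5, 17 and 15.3 CPM in KO, against 18.7, 18.6 and 22 CPM in WT, also without overlap, at -0.36 ± 0.16 (SE; adjusted p = 0.422 by edgeR). Asns had 82.1, 73.3 and 66.2 CPM in KO, against 74, 67 and 56.1 CPM in WT, and Psat1 had 69.6, 66.2 and 58.3 CPM in KO, against 61.2, 54.8 and 50.6 CPM in WT. Both pairs overlapped, with adjusted p of 0.388 and 0.38 by edgeR. Pck2 and Manf were at 0.26 ± 0.10 (adjusted p = 0.375) and 0.29 ± 0.11 (adjusted p = 0.341). In all, 2 of the 36 genes were wholly higher in KO (Atf5 and Pck2) and 3 wholly lower (Ddit3, Dnajb9 and Xbp1), where 5.47% and 6.30% of genes were. The perineurial marker sum was also wholly lower in KO, although only 1 of the 6 markers tested was called.

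Intervals differed in width among the core genes. Atf4 had 229, 289.6 and 287 CPM in KO, against 229, 235 and 297 CPM in WT, with a 95% interval of the log2 fold change of -0.23 to 0.17. Hspa5 had 853, 1026 and 952 CPM in KO, against 1028, 1002 and 941 CPM in WT, with an interval of -0.32 to 0.14. Mthfd2 had 13.9, 17.7 and 21.4 CPM in KO, against 23.4, 14.5 and 11.1 CPM in WT, and overlapped fully, with an interval of -0.51 to 0.89. Of the wider lists, none of the 22 eIF2 regulators, 19 tRNA synthetases, 10 transporters, 21 other folate and serine enzymes, 33 translocation genes, 28 foldases, 28 degradation factors, 12 heat shock genes and 20 S phase genes was called, while 4 of 15 immediate early genes fell.

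The 2 reporters gave mean levels within 1.5 times of each other at 7 dpi for 32 of the 36 genes. The share over all genes was not computed, so the count does not set these 36 apart from other genes. The tables were normalized separately, so the levels are set side by side without a test. Asns was at 61.6 ± 3.56 CPM in the Tomato 7 dpi libraries and 65.7 ± 9.05 CPM in Cherry WT, Psat1 at 61.3 ± 6.93 and 55.5 ± 5.33 CPM, Mthfd2 at 17.1 ± 2.92 and 16.3 ± 6.36 CPM, and Chac1 at 1.01 ± 0.388 and 1.39 ± 0.186 CPM. Pdia6 was at 519 ± 50.1 and 441 ± 39 CPM and Herpud1 at 129 ± 13.6 and 124 ± 10.5 CPM. Cldn1, a perineurial marker, was at 328 CPM in the Tomato 7 dpi libraries and at 1.64 CPM in Cherry WT.

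The other 4 genes were Phgdh, Nupr1, Vldlr and Atf5. Phgdh was at 36.3 ± 20.8 CPM in Tomato 7 dpi libraries and 3.98 ± 2.23 CPM in Cherry WT, with libraries of 7.25 to 58.8 and 2.03 to 6.42 CPM that did not overlap. Nupr1 was at 59.3 ± 25.7 and 14.7 ± 2.76 CPM, Vldlr at 12.4 ± 3.77 and 6.0 ± 1.36 CPM and Atf5 at 6.84 ± 2.34 and 3.25 ± 0.509 CPM. Each of these was lower in the sort with less RNA of fibroblast and perineurial markers, such as Dcn at 3560 CPM in Tomato 7 dpi libraries and 62.3 CPM in Cherry WT. The part of those cells was not tested, and reporter, mice and sort differ together.

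**Figure D5:**
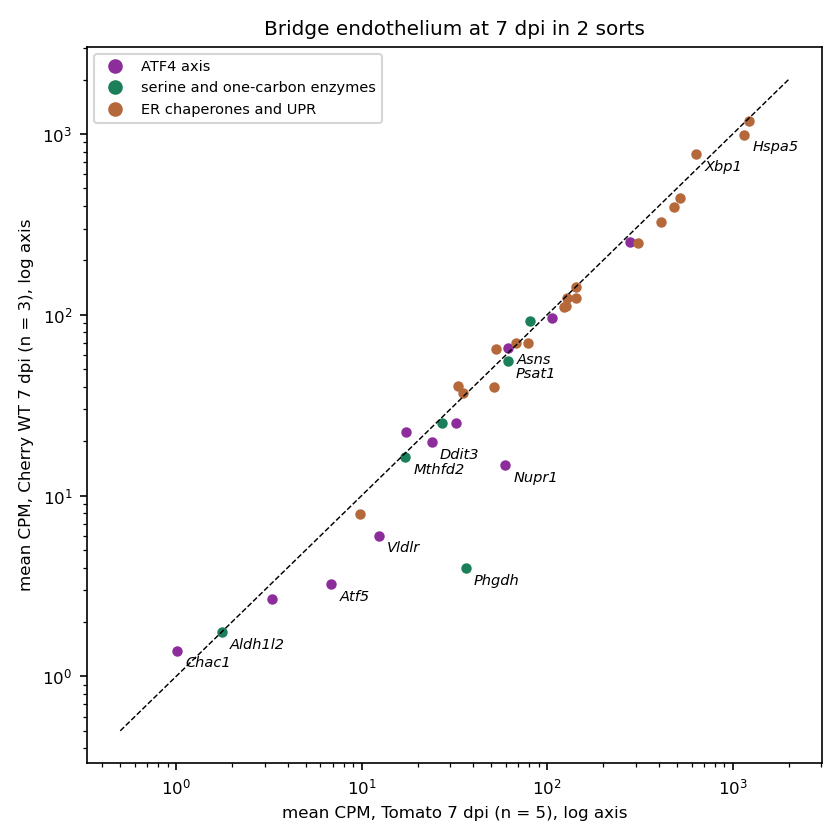
Mean CPM of the 36 genes in Tomato 7 dpi libraries (n = 5, horizontal log axis) and Cherry WT 7 dpi libraries (n = 3, vertical log axis), with the dashed line of equal levels. Phgdh (36.3 and 3.98 CPM) and Nupr1 (59.3 and 14.7 CPM) lie well below the line.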

How the data were processed

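The 14 Tomato libraries and 6 Cherry libraries were each deposited as 1 table of unnormalized whole-number counts by gene, per the file headers, and another deposited table holds Cherry counts that the authors corrected with ComBat-Seq. Trimmomatic 0.39, STAR 2.5.3a and featureCounts 1.6.4 with mm10 (GRCm38) are named per the submitters' processing notes, as is Cell Ranger 3.0.2. Which annotation release, strand setting and rule for multi-mapping reads applied is not given in the sources used here.

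The deposited counts went into edgeR 4.0.16 under R 4.3.3, with its filterByExpr filter, TMM factors, a robust quasi-likelihood F test and a term for batch (1133 or 1292, from the labels). The Tomato libraries shared 1 fit with 3 contrasts and the Cherry libraries had their own. Of 55376 genes, 20409 and 16227 were tested, and p-values were adjusted over all of them. The SE is the absolute log2 fold change over the square root of F. CPM per kb used the exon length in the tables. Gene positions are those of the tables, and 28 of the 36 genes had the same position in GENCODE M21. No replicate pair looked like 1 library deposited again, since chi-square divided by its degrees of freedom was 18.2 to 149.2 in 32 pairs. Within-batch differences used a pseudocount of 0.5 CPM. The code was tested on simulated data.

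The 36 genes and all lists were chosen with earlier results of these data known. All 36 may be named; of each wider list, the text draws on up to 3 rising and 3 falling called genes of greatest change whose mean log2 CPM reached 3, of which it names part. One listed synthetase symbol, Mars1, is not a symbol of the tables and was not analysed here.

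Alternatives were DESeq2 1.42.0, RLE factors, library size alone, no low-count filter, no batch term, each batch alone, only the groups compared, perineurial or fibroblast marker means as covariates, ComBat-Seq counts, and each library left out. Chosen after seeing the data were the summed Y-linked genes as a covariate, leaving out the 2 libraries with macrophage marker sums above 300 CPM, leaving out the library of lowest endothelial sum (intact replicate 5), and sets of neighbouring title numbers as a block.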

Additional observations from a re-analysis of the deposited data

Results flagged for a closer look

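In each of the Tomato groups, every gene was searched for a library whose gap to its neighbour was large against the range of its group. Of 108 groups of values, 10 held such a library, where chance alone flags about 1 in 20. Intact replicate 5 was found 3 times: it had 6.05 CPM of Slc7a11 against 0.0734 to 0.986 CPM in the other intact libraries, 5.07 CPM of Aldh1l2 against 0.305 to 1.46 CPM, and 75.2 CPM of Dnajb11 against 121 to 139 CPM. The same library had the lowest summed endothelial markers of the Tomato experiment, at 5480 CPM, and the part of that was not tested. At 14 dpi, replicate 1 had 2.28 CPM of Chac1 against 0.782 to 0.944 CPM in the others, 20.7 CPM of Sesn2 against 32.3 to 33.7 CPM, and 6.60 CPM of Mthfd2 against 8.90 to 9.0 CPM. Replicate 2 at 14 dpi had 2.91 CPM of Aldh1l2 against 0.987 to 1.14 CPM. At 7 dpi, replicate 4 had 37.8 CPM of Sesn2 against 29.9 to 31.8 CPM, replicate 1 had 4.70 CPM of Slc7a11 against 2.73 to 3.13 CPM, and replicate 3 had 20.2 CPM of Psph against 27.5 to 29.5 CPM.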

How the results depend on the processing

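The number of the 36 genes called at 7 dpi against intact nerve was 24, and it was 9 in batch 1133 alone and 3 with the perineurial covariate. With that covariate the log2 fold changes of Atf5, Nupr1 and Dnajc3 at 7 dpi turned to 0.18, 0.78 and 0.19; the cause was not tested. At 14 dpi against intact nerve 12 were called, and it was 0 in batch 1133 alone, 5 in batch 1292 alone, 2 with the perineurial covariate, 1 with the fibroblast covariate and 7 with the Y-linked covariate. At 14 dpi against 7 dpi 9 were called. That count was 15 with DESeq2, 14 with library size alone and 15 with only the 2 groups in the fit. It was 1 in batch 1133 alone, 4 in batch 1292 alone, 0 with the perineurial covariate, 2 with the fibroblast covariate, 5 with the Y-linked covariate and 4 without the 2 libraries of high macrophage RNA. Single batches have fewer libraries. Leaving out 1 library at a time gave 22 to 25, 8 to 14 and 6 to 9 calls in the 3 contrasts, and 0 to 0 for KO against WT, which was 0 in every alternative run. All 24, 12 and 9 calls were kept by DESeq2. Without the low-count filter the median over all genes at 7 dpi was -0.27, against -0.10. Genes under about 5 CPM, such as Chac1, Slc7a11 and Aldh1l2, had the widest errors. The labels pair no libraries. Neighbouring title numbers form 5 sets of Tomato libraries, each within 1 batch, and a block on these sets, chosen after seeing the data, gave 23, 9 and 8 calls in the 3 contrasts. Once group and batch were taken out, 2 of 13 pairs of libraries in a set deviated together at a correlation over 0.1, against 3 of 20 pairs from different sets and groups of 1 batch. For KO against WT no paired analysis was possible because no label or number run pairs those libraries.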

Other observations

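A few ER genes differed between the batches within a group. Hyou1 had 37.9, 37.8, 33.3, 80.7 and 69.3 CPM at 7 dpi, where the last 2 libraries are those of batch 1133, and 29.4, 66.1 and 70.5 CPM in Cherry KO, where the last 2 are again of that batch. Edem1 in the Cherry sort had 36.3, 77.1 and 80.4 CPM in KO and 42.4, 69.5 and 82.2 CPM in WT, with the first KO library and the first 2 WT libraries of batch 1292. Dnajb9 ran the other way, with 98.4, 90.2, 90.8, 60.8 and 52.9 CPM at 7 dpi. Batch was a term of the model in each comparison of these genes. That term takes the same batch difference for every group. For Hyou1 at 7 dpi against intact nerve, the log2 difference was 0.50 in batch 1133 and -0.29 in batch 1292, which the term does not cover.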
